A study of Rattus norvegicus with 19 samples.

Results

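The genes *Rad21l1*, *Ptx3*, *Itgb6*, *Chad* and *Mybpc1* were followed in the rat hippocampus across animals with 1, 2 or 3 copies of the chromosome 1 segment from *Sult1a1* to *Spn*, the rat counterpart of human 16p11.2. All 5 lie outside that segment. They were chosen on their own values in these samples: *Rad21l1*, *Ptx3*, *Itgb6* and *Chad* because the study named them among genes changed in carriers or graded with copy number, and *Mybpc1* because of its difference in Del/+ in an earlier analysis of the same counts. They are 5 of 32623 genes in the count files and 5 of the 15440 that passed the filter on low counts. Differences from wt and slopes on copies of these 5 genes are therefore given as a description, with no test read from them.

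The animals were adult male rats of the outbred Sprague Dawley background, from lines in which CRISPR/Cas9 had deleted or duplicated the segment. Hippocampal RNA was sequenced from 4 Del/+ rats (1 deleted and 1 intact chromosome, 1 copy), 6 wt littermates (2 copies), 4 Del/Dup rats (a deleted and a duplicated chromosome, 2 copies) and 5 Dup/+ rats (a duplicated and an intact chromosome, 3 copies). No treatment was given in the labels, and the exact age at RNA collection is not given in the sources used here. The whole hippocampus was taken, so that fewer cells of a type and less RNA per cell cannot be told apart in any value below.

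The 5 genes come from unrelated families. *Rad21l1* encodes a kleisin, the subunit that closes the cohesin ring around DNA, in the form used by germ cells in meiosis, and its somatic counterpart is *Rad21*. *Ptx3* encodes a long pentraxin, a secreted pattern-recognition protein made in inflammation and by reactive astrocytes. *Itgb6* encodes the beta 6 integrin chain, which pairs with the alpha V chain (*Itgav*) at the surface of epithelial cells and releases active TGF-beta from its latent complex. *Chad* encodes chondroadherin, a leucine-rich repeat protein of the cartilage matrix. *Mybpc1* encodes the slow skeletal form of myosin-binding protein C, a thick filament protein, and its transcript also marks some VIP interneurons of the cortex.

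The promoters of *Rad21l1*, *Ptx3* and *Mybpc1* are shown because these 3 genes had the steepest slopes on copies of the 5, with a change made on another chromosome. Each runs from 250 bases before to 50 bases after the transcription start, 5′ to 3′ on the gene's strand, from RefSeq. Short motifs (6 in all) were searched on both strands, and matches are in capitals.
*Rad21l1* promoter, GRCr8 chr3:160648667-160648966, strand minus: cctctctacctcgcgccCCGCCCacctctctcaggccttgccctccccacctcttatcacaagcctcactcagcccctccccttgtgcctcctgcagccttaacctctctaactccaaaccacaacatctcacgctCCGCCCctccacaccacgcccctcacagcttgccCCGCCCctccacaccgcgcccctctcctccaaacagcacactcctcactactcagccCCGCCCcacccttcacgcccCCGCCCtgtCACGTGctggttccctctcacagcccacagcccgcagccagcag
*Ptx3* promoter, GRCr8 chr2:152797313-152797612, strand plus: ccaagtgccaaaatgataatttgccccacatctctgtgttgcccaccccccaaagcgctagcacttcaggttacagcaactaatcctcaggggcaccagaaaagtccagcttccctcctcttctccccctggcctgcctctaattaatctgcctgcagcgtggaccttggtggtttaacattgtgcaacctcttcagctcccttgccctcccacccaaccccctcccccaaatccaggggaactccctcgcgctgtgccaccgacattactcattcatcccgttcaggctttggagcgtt
*Mybpc1* promoter, GRCr8 chr7:24903324-24903623, strand minus: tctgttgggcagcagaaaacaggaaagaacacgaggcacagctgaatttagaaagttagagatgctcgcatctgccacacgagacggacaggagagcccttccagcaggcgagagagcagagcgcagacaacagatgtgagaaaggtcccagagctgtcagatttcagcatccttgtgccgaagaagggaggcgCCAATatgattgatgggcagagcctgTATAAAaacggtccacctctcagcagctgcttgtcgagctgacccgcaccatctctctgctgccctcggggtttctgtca
The motifs were TATAAA (present in 14.2% of 33469 rat promoters of the same length), CCAAT (37.5%), the GC box CCGCCC (33.1%), the E box CACGTG (6.42%), the AP-1 site TGANTCA (7.33%) and the ETS core CCGGAA (15%). None of the matches shown overlapped another motif. The *Rad21l1* window held 5 GC boxes, from position -233 to position -3 counted from 0 at the start, and 1 E box at position 6. That of *Ptx3* held no match. In *Mybpc1*, a TATAAA stood at -30 and a CCAAT at -56. *Rad21l1*, *Ptx3* and *Mybpc1* had 14, 7 and 12 CpG dinucleotides, against a median of 7 over all promoters. The windows of *Itgb6* and *Chad* held no match and a TATAAA at -29 with a GC box at -109, respectively. These are descriptions of letters in a window, not of sites in use.

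Depth was 16191192 to 38760645 reads over genes per library. Of 10 hippocampal neuron markers, 8 were tested in the labelled tissue, with 0 called in any comparison. The 10 summed to 2313 to 3006 counts-per-million (CPM) over all groups. The largest part of this sum was *Snap25*, with a mean of 1524 CPM in wt and 1807 CPM in Del/+. The sum therefore says little of the other markers. In Del/+, 5 of these 8 markers passed an unadjusted p under 0.05, 4 lower and 1 (*Snap25*) higher, with a median log2 fold change of -0.24. In Del/Dup 2 of the 8 did, both lower, with a median of -0.23. In Dup/+ the count was 0 and the median -0.05. Over all genes tested, 18.4% in Del/+, 16.2% in Del/Dup and 8.94% in Dup/+ passed the same threshold. Over the 27 interval genes tested, the median log2 fold change against wt was -1.01 in Del/+, 0.51 in Dup/+ and -0.06 in Del/Dup, in the order of the copies of each group. The label of wt replicate 5 is at odds with itself, with wt in the description and Dup/+ in the genotype field. Its interval median stood -0.04 from the wt mean, and it was kept as wt. Del/+ replicates 1 to 3 and the 4 Del/Dup libraries stood apart in the proportion of multi-mapped reads (aligned at several places), 57.8% to 76.3% against 40.1% to 50.5% in all other libraries. Values of the 5 genes in Del/+ are given with and without the high-share libraries further on, which cannot be done for Del/Dup.

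The level of *Rad21l1* rose with each copy. Del/+ replicates 1 to 4 stood at 0.311, 0.328, 0.342 and 0.403 CPM. In wt the lowest library was at 0.478, the median 0.813 and the highest 0.983 CPM. The Del/+ libraries all lay below every wt library. Del/Dup replicates 2 to 5 stood at 0.748, 0.785, 0.896 and 0.470 CPM. Dup/+ replicates 1 to 5 stood at 1.20, 1.52, 1.49, 0.924 and 1.62 CPM. The Del/Dup libraries lay within the wt range except replicate 5, just under its lower end, and 4 of 5 Dup/+ libraries lay above every wt library, replicate 4 being the exception. Group means were 0.346 ± 0.040 (SD, n = 4) in Del/+, 0.755 ± 0.229 (SD, n = 6) in wt, 0.725 ± 0.181 (SD, n = 4) in Del/Dup, and 1.35 ± 0.287 CPM (SD, n = 5) for the Dup/+ libraries. Wt and Del/Dup, which have the same number of copies, did not differ beyond their spread. The mean of the 10 libraries with 2 copies was 0.743 CPM, so that the ratio of 1 to 2 copies was 0.466 and the ratio of 3 to 2 copies 1.82. Across the interval genes themselves the median ratios were 0.503 and 1.47. These levels rest on few reads, 8 to 15 per library in Del/+ and 24 to 44 in Dup/+, and counting error alone gives a coefficient of variation of 30.8% and 18.1% in those groups. The spread measured in Del/+ was smaller than that, 11.5%, and in Dup/+ it was 21.2%.

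*Ptx3* followed the same order in smaller steps. Del/+ replicates 1 to 4 stood at 0.831, 0.574, 1.03 and 0.672 CPM. The wt libraries ran from 0.872 through a median of 1.25 to 1.52 CPM. Of the Del/+ libraries, 3 lay below every wt library, and replicate 3 fell inside the wt range. Del/Dup replicates 2 to 5 stood at 1.07, 1.15, 1.25 and 1.02 CPM, and Dup/+ replicates 1 to 5 at 1.86, 1.52, 1.73, 1.39 and 1.58 CPM. The Del/Dup values sat in the middle of the wt values, whereas 4 of 5 Dup/+ libraries were above the highest wt library, replicate 2 by a narrow margin. Group means were 0.776 ± 0.198 (SD, n = 4), 1.18 ± 0.243 (SD, n = 6), 1.12 ± 0.099 (SD, n = 4) and 1.62 ± 0.184 CPM (SD, n = 5) in Del/+, wt, Del/Dup and Dup/+. The ratio of 1 to 2 copies was 0.669 and that of 3 to 2 copies 1.39. The Del/Dup range lay wholly inside the wt range.

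**Figure D1:**
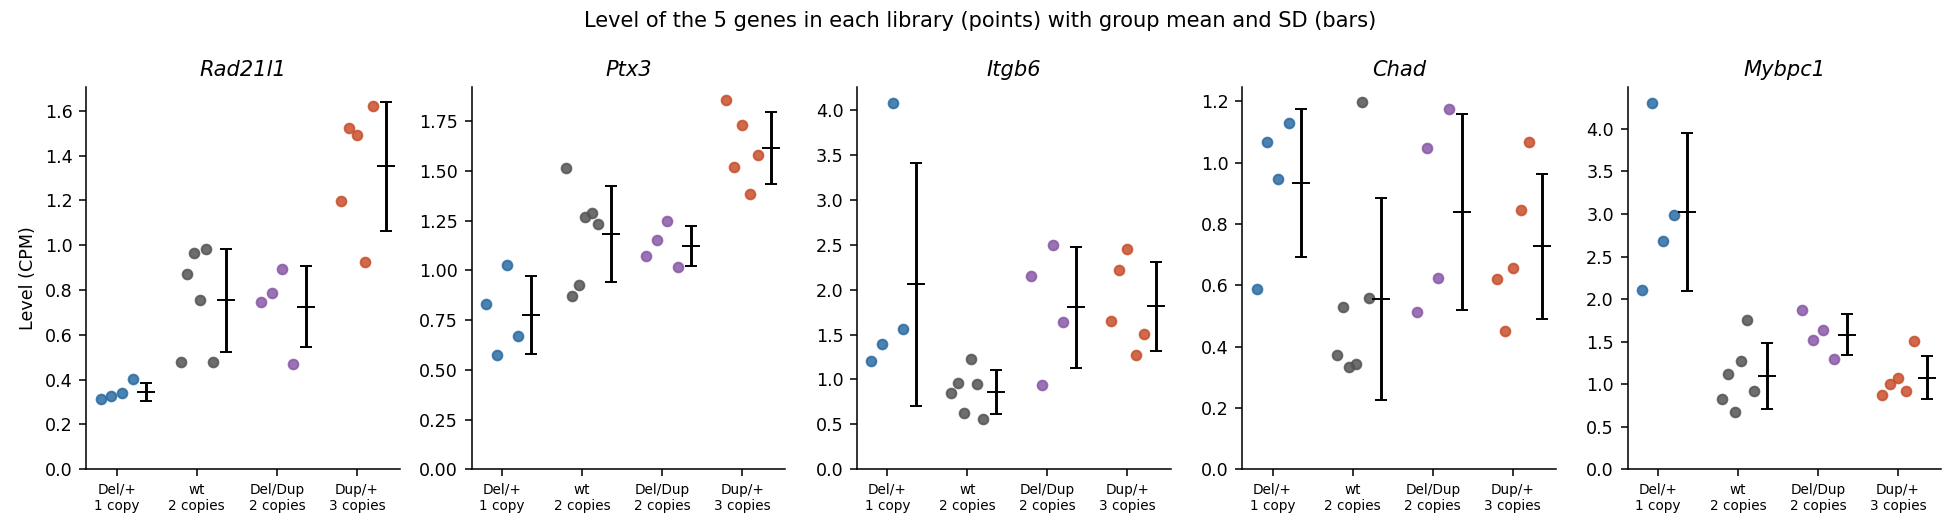
Level of each gene in CPM (vertical axis, from 0) by group, ordered by copies of the interval; coloured points are single libraries and black bars the group mean and SD. *Rad21l1* and *Ptx3* rise from Del/+ to Dup/+, *Mybpc1* is highest in Del/+, and single high points stand out for *Itgb6* in Del/+ (4.08 CPM) and *Chad* in wt (1.20 CPM).

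*Mybpc1* went the other way, and nearly all of its difference lay between 1 and 2 copies. Del/+ replicates 1 to 4 stood at 2.11, 4.31, 2.68 and 2.98 CPM. Levels in wt were 0.667 at the lowest, 1.02 at the median and 1.75 CPM at the highest, the last in replicate 5. Every Del/+ library lay above every wt library. Del/Dup replicates 2 to 5 stood at 1.87, 1.52, 1.64 and 1.29 CPM. Dup/+ replicates 1 to 5 stood at 0.867, 1.004, 1.08, 0.924 and 1.503 CPM. The Dup/+ libraries were spread over the wt range, and the Del/Dup libraries over its upper part, with replicate 2 above it. Group means were 3.02 ± 0.930 (SD, n = 4) in Del/+, 1.09 ± 0.387 (SD, n = 6) in wt, 1.58 ± 0.240 (SD, n = 4) in Del/Dup and 1.07 ± 0.252 CPM (SD, n = 5) in Dup/+. The ratio of 1 to 2 copies was 2.35, and that of 3 to 2 copies was 0.835, a step smaller than the spread between libraries. Without wt replicate 5, the wt mean was 0.959 ± 0.238 CPM (SD, n = 5), below that of Dup/+, so that the group means no longer fell in the order of copies, and the log2 fold change in Dup/+ went from -0.03 to 0.15.

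*Itgb6* was higher in each carrier group than in wt, without an order by copies. Del/+ replicates 1 to 4 stood at 1.21, 1.39, 4.08 and 1.56 CPM. The wt libraries ranged from 0.557 through a median of 0.902 to 1.23 CPM. Replicate 3 of Del/+ was far above the other Del/+ libraries, of which replicate 1 fell just inside the wt range. Del/Dup replicates 2 to 5 stood at 2.15, 0.942, 2.49 and 1.65 CPM. Dup/+ replicates 1 to 5 stood at 1.65, 2.22, 2.45, 1.27 and 1.503 CPM. Every Dup/+ library was above every wt library, and so were 3 of 4 Del/Dup libraries. Group means were 2.06 ± 1.35 (SD, n = 4) in Del/+, 0.865 ± 0.246 (SD, n = 6) in wt, 1.81 ± 0.674 (SD, n = 4) in Del/Dup and 1.82 ± 0.496 CPM (SD, n = 5) in Dup/+. Without Del/+ replicate 3 the Del/+ mean was 1.39 ± 0.174 CPM (SD, n = 3), and the log2 fold change against wt went from 1.20 ± 0.33 (SE) to 0.64 ± 0.28 (SE).

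Markers of tissues that border the hippocampus moved with *Itgb6*. Choroid plexus markers, such as *Ttr* (transthyretin), summed to 5.93 to 40.2 CPM in wt, 8.45 to 1337 CPM in Del/+, 46.0 to 1278 CPM in Del/Dup and 9.49 to 432 CPM in Dup/+. Of the 12 listed, 11 were tested and 1 had no read in any group. None was called in any comparison, although all 11 were higher at an unadjusted p under 0.05 in Del/+ and in Del/Dup. Their median log2 fold changes there were 3.14 and 3.42. In Dup/+ 2 of the 11 passed this threshold, both higher, and the median was 1.42. Over all genes tested, 18.4% passed it in Del/+, 16.2% in Del/Dup and 8.94% in Dup/+. Ependymal markers summed to 20.05 to 26.1 CPM in wt, 21.3 to 37.7 CPM in Del/+, 22.0 to 28.5 CPM in Del/Dup and 23.4 to 29.6 CPM in Dup/+, with 6 of 7 tested and 0 called. The library with the highest *Itgb6*, Del/+ replicate 3, was also the highest of all 19 in both sums and in the sum of meningeal and vascular markers (233 CPM). Over the 19 libraries, which share tissue dissection and scaling, Pearson's r of log2 *Itgb6* with the log2 sums was 0.66 for choroid plexus and 0.69 for ependymal markers, and 0.60 and 0.66 for deviations from the group means. For meningeal and vascular markers it was 0.58, and 0.68 within groups. Microglia markers had an r of -0.63 with *Itgb6* (-0.44 within groups) and reactive astrocyte genes of -0.52 (-0.42 within groups). The part of these markers in the *Itgb6* difference was not tested. With *Ttr* added to the fit as a covariate, the log2 fold change of *Itgb6* was 0.76 ± 0.31 (SE) in Del/+, 0.75 ± 0.28 (SE) in Dup/+ and 0.38 ± 0.35 (SE) in Del/Dup, against 1.20 ± 0.33, 0.99 ± 0.32 and 1.01 ± 0.34 (SE) without it. The choroid plexus sum lay within the wt range in 5 carrier libraries. These were Del/+ replicates 1 and 2 (12.3 and 8.45 CPM), with *Itgb6* at 1.21 and 1.39 CPM, and Dup/+ replicates 1, 3 and 4 (9.49, 15.9 and 12.1 CPM), with *Itgb6* at 1.65, 2.45 and 1.27 CPM. Of the 5, Del/+ replicate 1 was within the wt range of *Itgb6* and the other 4 were above it.

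**Figure D2:**
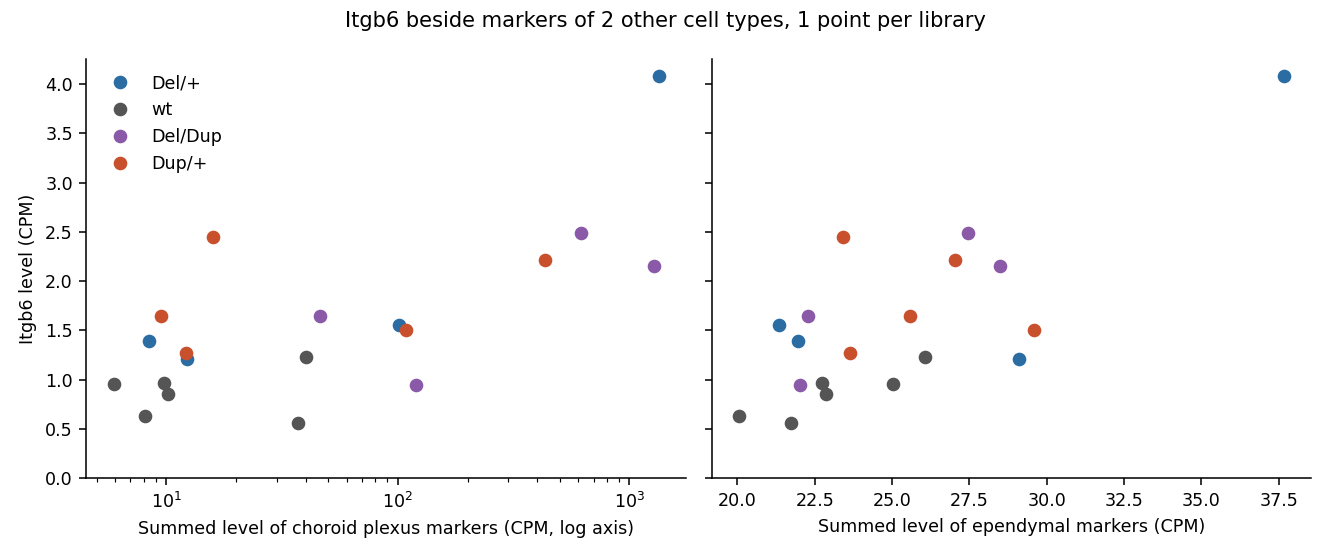
*Itgb6* level (vertical axis, CPM) in each of the 19 libraries against the summed level of choroid plexus markers (left, CPM on a log axis) and of ependymal markers (right, CPM), coloured by group. Del/+ replicate 3, at 4.08 CPM of *Itgb6*, lies at the upper right of both panels, and the wt libraries (grey) are at 1.23 CPM or lower.

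*Chad* showed the widest overlap. Del/+ replicates 1 to 4 stood at 0.588, 1.07, 0.948 and 1.13 CPM. In wt the lowest library was at 0.333, the median was 0.451 and the highest, replicate 5, was at 1.20 CPM. No other wt library exceeded 0.557 CPM, so the top of the wt range was set by that library alone. Del/Dup replicates 2 to 5 stood at 0.514, 1.05, 0.623 and 1.18 CPM. Dup/+ replicates 1 to 5 stood at 0.619, 0.450, 0.657, 0.847 and 1.07 CPM. All carrier libraries lay inside the wt range. Means were 0.933 ± 0.242 (SD, n = 4) in Del/+, 0.555 ± 0.329 (SD, n = 6) in wt, 0.840 ± 0.321 (SD, n = 4) in Del/Dup and 0.728 ± 0.237 CPM (SD, n = 5) in Dup/+, in an order in which Del/+, Del/Dup and Dup/+ overlapped widely, while the Del/+ mean exceeded the wt mean by more than either SD. Without wt replicate 5, the wt mean was 0.427 ± 0.108 CPM (SD, n = 5) and every Del/+ library stood above every remaining wt library. The log2 fold change of *Chad* in Dup/+, 0.34, was 0.68 without wt replicate 5 and 0.18 without Dup/+ replicate 5. In Del/+ it was 0.68, and 1.02 without wt replicate 5. The slope on copies was -0.16 ± 0.19 (SE) log2 units per copy, -0.26 without Dup/+ replicate 5 and -0.09 without Del/+ replicate 4.

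On the log2 scale, the differences from wt of *Rad21l1*, *Ptx3*, *Itgb6*, *Chad* and *Mybpc1* were -0.97, -0.56, 1.20, 0.68 and 1.40 in Del/+, with SE of 0.27, 0.19, 0.33, 0.34 and 0.23. In Dup/+ the same genes stood at 0.78, 0.42, 0.99, 0.34 and -0.03, with SE of 0.22, 0.17, 0.32, 0.34 and 0.24. Both comparisons use the same wt libraries. By slope, the change per added copy was 0.87 in *Rad21l1*, 0.49 in *Ptx3*, -0.09 in *Itgb6*, -0.16 in *Chad* and -0.73 in *Mybpc1*, beside a median of 0.74 over the interval genes. The median over all genes tested was 0.00 in each comparison.

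The choice of genes used these contrasts, so counts of calls (edgeR quasi-likelihood test, Benjamini-Hochberg adjusted p under 0.05) are given with their background only. In Del/+ 1 of the 5 was called, *Mybpc1*, where 0.771% of all genes tested were called. In Dup/+ the count was 0 of 5 (background 0.272%), and by slope it was 3 of 5, *Rad21l1*, *Ptx3* and *Mybpc1* (background 0.576%). With a term for a multi-mapped share over 55%, the counts were 0 in Del/+ and 1 by slope, *Rad21l1*, and in libraries with a share under 55%, which hold 1 Del/+ library, they were 0 and 0. Libraries did not overlap with wt in 2 of 5 for Del/+ (background 4.94%) and in 1 of 5 for Dup/+ (background 1.17%). Group means rose with copies in 2 of 5, a pattern held by 8.28% of genes tested, and fell in 1 of 5, *Mybpc1* with wt replicate 5 included, held by 8.47%. A wt mean below all 3 carrier means was found in *Itgb6* and *Chad*, and in 25% of all genes.

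Del/Dup against wt was the comparison on which the choice rested least, but the Del/Dup libraries counted as 2 copies in the slope known when the genes were chosen. The values are a description too, and nothing is read from the calls. None of the 5 was called, where 14 of the 15440 genes, 0.0907%, were called and libraries did not overlap in 2.56%. At an unadjusted p under 0.05 there were 2 of the 5, *Itgb6* and *Mybpc1*, beside 2504 of all genes tested, and DESeq2 called 0 of 5 too. The log2 difference of *Rad21l1* was -0.06 ± 0.25 (SE), with a 95% interval of -0.59 to 0.47. For *Ptx3* it was -0.08 ± 0.19 (SE), interval -0.47 to 0.31. These intervals leave room for a difference in either direction. *Itgb6* differed by 1.01 ± 0.34 (SE), interval 0.36 to 1.78, with 3 of 4 Del/Dup libraries above the wt range. *Chad* differed by 0.53 ± 0.36 (SE), interval -0.16 to 1.34. It was 0.87 when wt replicate 5 was left out and 0.33 when Del/Dup replicate 5 was. *Mybpc1* differed by 0.50 ± 0.25 (SE), interval 0.01 to 1.04, with 1 of 4 Del/Dup libraries above the wt range.

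**Figure D3:**
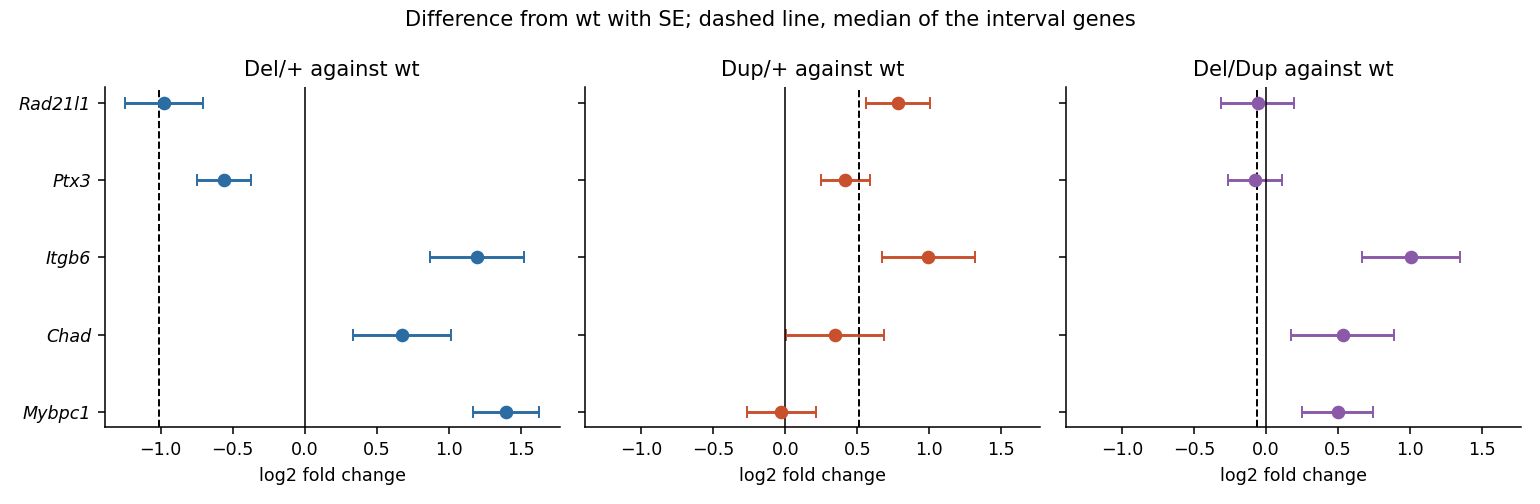
Log2 fold change against wt (horizontal axis) of the 5 genes in Del/+, Dup/+ and Del/Dup, with bars of 1 SE; the dashed line is the median of 27 interval genes. *Rad21l1* lies on the interval median in Del/+ and near 0 in Del/Dup, whereas *Itgb6* is shifted to the right by 0.99 to 1.20 in all 3 panels.

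The multi-mapped share separates Del/Dup from wt completely, so for this comparison it cannot be told apart from the genotype. For Del/+, replicate 4 (41.6%) allowed a comparison within the low-share libraries, an alternative chosen after seeing the data. There the log2 difference of Del/+ from wt was -0.80 ± 0.48 (SE) for *Rad21l1*, -0.76 ± 0.34 for *Ptx3*, 0.79 ± 0.37 for *Itgb6*, 0.93 ± 0.54 for *Chad* and 1.39 ± 0.35 for *Mybpc1*, each from that 1 Del/+ library, which is assumed to vary like the other groups. Over all genes, replicate 4 differed from the other Del/+ libraries by a chi-square per degree of freedom of 35.3 to 59.9. Among those libraries it was 13.7 to 27.1. The direction was that of the full data, which include replicate 4, for all 5. Among the high-share libraries alone, 3 Del/+ and 4 Del/Dup, the log2 difference of Del/+ from Del/Dup was -0.99 ± 0.32 (SE) for *Rad21l1* and 0.90 ± 0.26 (SE) for *Mybpc1*, beside -0.92 ± 0.30 and 0.90 ± 0.26 (SE) over all libraries. For *Ptx3* it was -0.42 ± 0.24 (SE) beside -0.48 ± 0.21 (SE). *Itgb6* and *Chad* stood at 0.30 ± 0.45 and 0.04 ± 0.35 (SE), beside 0.19 ± 0.35 and 0.14 ± 0.37 (SE), so neither separated 1 from 2 copies within these libraries.

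Blood markers, hemoglobin and other red cell genes, also differed between groups, with 3 of 5 called higher in Dup/+. Their sum was 117 to 160 CPM in wt, 103 to 163 CPM in Del/+, 132 to 164 CPM in Del/Dup and 180 to 243 CPM in Dup/+. Pearson's r with *Rad21l1* was 0.77 over the 19 libraries and 0.33 for deviations from group means, and with *Ptx3* 0.66 and 0.02. Within groups, *Rad21l1* had an r of -0.50 with hippocampal neuron markers (-0.58 over all libraries), *Ptx3* of 0.60 with ependymal markers (0.21 over all) and *Mybpc1* of -0.69 with reactive astrocyte genes (-0.45 over all). The largest part of the hippocampal neuron sum was *Snap25* (mean of 1524 CPM in wt), and that of the reactive astrocyte sum was *Gfap* (1052 CPM). These 2 correlations therefore rest mainly on 1 gene each. The part of blood and of these other markers in the levels was not tested. Microglia markers summed to 161.6 to 212 CPM over all libraries, with 7 of 7 tested and 0 called, and meningeal and vascular markers to 155 to 233 CPM, with 8 of 10 tested and 0 called.

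The families of the 5 genes were then examined as lists, 150 genes in the files, of which 108 were tested. None of the 108 was called in Del/+, Dup/+ or Del/Dup by edgeR. At an unadjusted p under 0.05 there were 17 in Del/+ (15.7%, against 18.4% of all genes tested), 10 in Dup/+ (9.26% against 8.94%) and 13 in Del/Dup (12.0% against 16.2%). DESeq2 called 4 in Del/+, *Nptx1*, *Nptxr*, *Itga7* and *Smad2*, where it called 592 of 14427 genes in all, and 0 in the other comparisons. Median log2 fold changes of the 108 were -0.01, -0.04 and -0.00, against 0.00 over all genes.

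Of 20 cohesin genes listed, 16 were tested and 0 called. At an unadjusted p under 0.05 there were 6 in Del/+ (5 higher and 1 lower) and 3 each, all higher, in Dup/+ and Del/Dup, beside 18.4%, 8.94% and 16.2% of all genes tested in Del/+, Dup/+ and Del/Dup. The list had median log2 fold changes of 0.07 in Del/+, 0.04 in Dup/+ and 0.00 in Del/Dup. *Rad21*, the somatic kleisin, stood at 155 ± 6.67 CPM (SD, n = 6) in wt, 167 ± 8.07 CPM (SD, n = 4) with the deletion and 164 ± 6.15 CPM (SD, n = 5) with the duplication, log2 differences of 0.11 and 0.09 (edgeR adjusted p = 0.194 and 0.555). The meiotic kleisin *Rec8* did not pass the filter on low counts. Of 23 meiotic and germ line genes in the files, 7 were tested and 0 called. The 23 summed to 7.19 to 9.21 CPM in wt, 8.06 to 9.73 CPM in Del/+ and 7.17 to 9.34 CPM in Dup/+. In Del/Dup the sum was 9.47 to 10.98 CPM, above that of every wt library. At an unadjusted p under 0.05 there was 1 of the 7 in Del/Dup, higher, and 0 in Del/+ and in Dup/+. Among the tested was *Sycp3*, a protein of the synaptonemal complex, at 2.70 ± 0.587 CPM (SD, n = 6) in wt and 2.77 ± 0.574 CPM (SD, n = 5) in Dup/+.

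For *Ptx3*, 9 of 12 pentraxins and partners and 19 of 21 reactive astrocyte genes were tested, with 0 called in either list. The neuronal pentraxins had estimates below wt in Del/+ and in Del/Dup. *Nptxr*, the membrane-bound receptor form, stood at 1393 ± 281 CPM (SD, n = 4) in Del/+ and 1842 ± 169 CPM (SD, n = 6) in wt, a log2 difference of -0.40 ± 0.10 (SE, edgeR adjusted p = 0.0650). *Nptx1*, a secreted partner at synapses, differed by -0.37 ± 0.12 (SE, edgeR adjusted p = 0.119) and *Nptx2* by -0.21 ± 0.11 (SE, edgeR adjusted p = 0.314). In Dup/+ the same genes differed by -0.08, -0.20 and 0.06 on the log2 scale, and in Del/Dup by -0.19, -0.29 and -0.14, none past the threshold. The median of the reactive astrocyte list was 0.04 in Del/+, 0.01 in Dup/+ and 0.08 in Del/Dup.

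Among integrins, 17 of 19 were tested and 0 called, with medians of -0.04, -0.06 and -0.04. *Itgav*, the partner chain of *Itgb6*, stood at 68.2 ± 6.47 CPM (SD, n = 6) in wt and at 75.0 ± 11.1 (SD, n = 4) in Del/+, a log2 difference of 0.13 (edgeR adjusted p = 0.429), and differed by -0.00 in Dup/+ (edgeR adjusted p = 0.996). The list of integrin ligands and TGF-beta genes had 13 of 14 tested and 0 called. Of the small leucine-rich proteoglycans, 8 of 14 were tested and 0 called. *Chadl*, the closest relative of *Chad*, stood at 7.54 ± 1.40 CPM (SD, n = 6) in wt, with log2 differences of -0.13 in Del/+ and 0.05 in Dup/+ (edgeR adjusted p = 0.679 and 0.956).

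Sarcomere genes had 19 of 27 tested and 0 called. *Mybpc2*, the fast skeletal form, differed by -0.11 ± 0.30 (SE) in Del/+ (edgeR adjusted p = 0.873). *Mybpc3*, the cardiac form, differed by 0.32 ± 0.32 (SE) in Del/+ and by 0.83 ± 0.32 (SE) in Del/Dup (edgeR adjusted p = 0.538 and 0.174), from 0.265 ± 0.052 CPM (SD, n = 6) in wt. Of 16 interneuron markers, 15 were tested and 0 called, with median log2 fold changes of 0.10, -0.01 and 0.04. At an unadjusted p under 0.05 there were 3 in Del/+, all higher, 1 in Dup/+, lower, and 4 in Del/Dup, of which 3 were higher, where 18.4%, 8.94% and 16.2% of all genes tested passed it. The 3 in Del/+, named after their values were seen, were *Vip* (0.42), *Pvalb* (0.40) and *Calb2* (0.39), with edgeR adjusted p = 0.198, 0.0650 and 0.0974. *Vip* stood at -0.11 in Dup/+ and 0.35 in Del/Dup, neither past the threshold. The count in Del/+ was near that share, and no part of these genes in the *Mybpc1* difference was tested.

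A partial list of other genes that the study named outside the interval held 10 in the files, of which 4 were tested. Their log2 fold changes ran from -0.64 to 0.65 in Del/+ and from -2.10 to 0.92 in Dup/+, with 1 called, lower in Dup/+. The list was chosen on these samples, so the count is not independent evidence of its direction.

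The nearest tested genes on either side of each gene, 2 before and 2 after in GRCr8 order, were used to ask whether the differences extended along the chromosome. GRCr8 is another assembly than the one the reads were aligned to and served only for gene order. The 5 genes lie on chromosomes 3 (*Rad21l1* and *Itgb6*), 2 (*Ptx3*), 10 (*Chad*) and 7 (*Mybpc1*), none on chromosome 1. Of the 20 neighbours, 0 were called in any comparison against wt. Beside *Rad21l1*, *Snph* (syntaphilin, a mitochondrial anchor of axons) differed by -0.19 in Del/+ (edgeR adjusted p = 0.0590) and by -0.03 in Dup/+ (edgeR adjusted p = 0.864), and *Tmem74b* by -0.27 and -0.19 (edgeR adjusted p = 0.505 and 0.827). The largest estimates were in *Mlf1*, next to *Ptx3*, at 0.97 in Del/+ and 0.76 in Dup/+ (edgeR adjusted p = 0.0605 and 0.295). Its estimate in Del/+ had the opposite sign to that of *Ptx3*. The 4 neighbours of *Mybpc1* lay within -0.03 and 0.14 in Del/+.

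**Figure D4:**
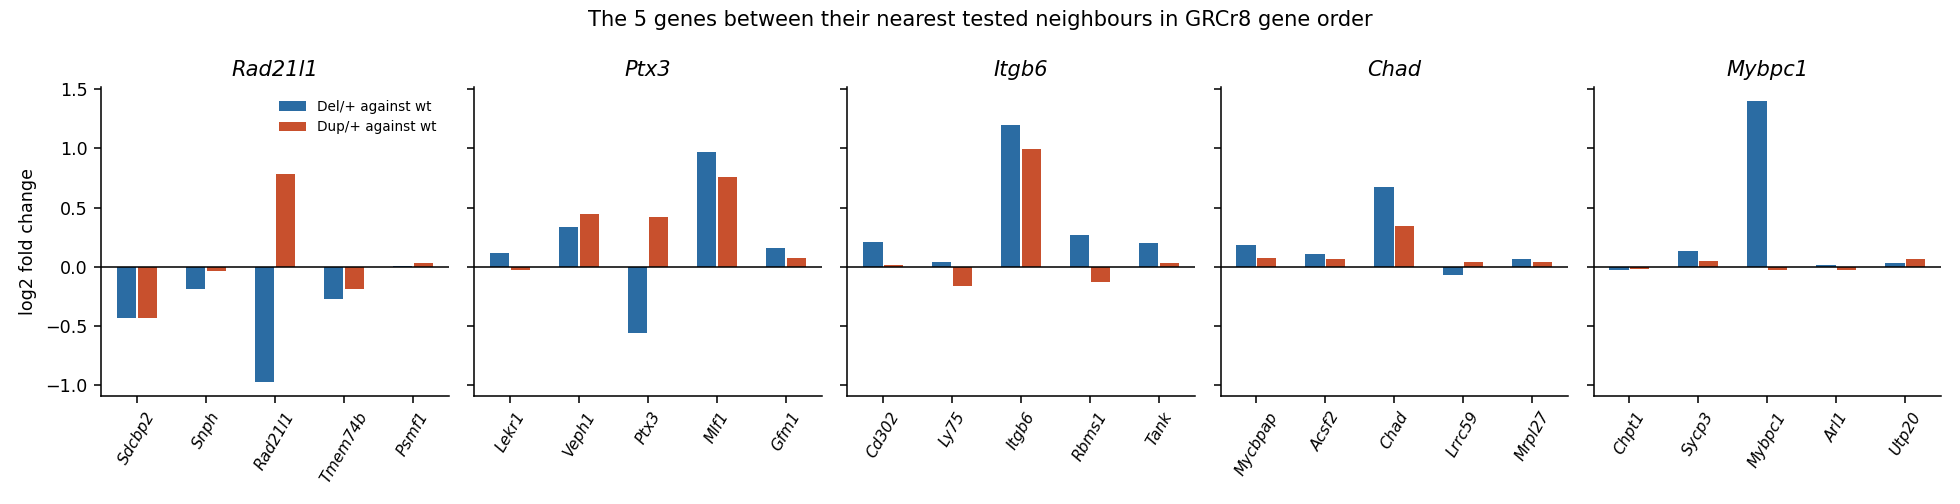
Log2 fold change against wt (vertical axis) in Del/+ (blue) and Dup/+ (red) of each gene, in the middle of its panel, and of its 2 nearest tested neighbours on each side. *Rad21l1* is the only bar pair in its panel with opposite signs of over 0.5, and *Mybpc1* (1.40 in Del/+) stands above neighbours near 0.

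The genes whose levels followed each of the 5 most closely over the 19 libraries were named by Pearson's r of log2 CPM, as a description. For *Rad21l1* these were AABR07005779.2 (r = 0.87), *Tgfb1i1* (0.80) and *Apoc1* (0.79). The first shares the prefix of its name with 2 transcripts of the interval list, and its own position was not known here. Its log2 fold changes were -0.95 in Del/+, 0.61 in Dup/+ and -0.16 in Del/Dup, beside interval medians of -1.01, 0.51 and -0.06. It may therefore be a gene of the interval itself. *Tgfb1i1* and *Apoc1* lie on chromosome 1 in GRCr8, the chromosome of the interval. For deviations from group means, r fell to 0.03, 0.04 and 0.36, so that the likeness of the first 2 lay in the group means.

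Among the genes closest to *Ptx3* were *Ak4* (0.83), an adenylate kinase of mitochondria, and *Colq* (0.81), the collagen tail of acetylcholinesterase. *Itgb6* was closest to *Rgs22* (0.87), *Ccdc190* (0.86) and AABR07031193.1 (0.85), which kept r of 0.81, 0.75 and 0.85 within groups. *Chad* was closest to *Bdp1* (0.82), a subunit of the RNA polymerase III factor TFIIIB, AABR07001382.1 (0.77) and *Arnt* (0.75). *Mybpc1* was closest to *Adcy8* (0.90), an adenylyl cyclase driven by calcium, *Lgi2* (0.87) and *Rnf152* (0.87), a ubiquitin ligase of lysosomes, with r of 0.72, 0.70 and 0.67 within groups. *Rnf152* had log2 differences of 1.51 in Del/+ and 0.18 in Dup/+, near the pattern of *Mybpc1*.

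Between the 5 genes, r over the libraries was highest for *Rad21l1* with *Ptx3* (0.71) and lowest for *Ptx3* with *Mybpc1* (-0.67). Within groups these values were -0.18 and -0.11, so that libraries of a group with high *Rad21l1* were not those with high *Ptx3*. *Chad* and *Mybpc1* had r of 0.59 over all libraries and 0.51 within groups, and wt replicate 5 was the highest wt library in both.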

How the data were processed

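Gene counts came from 19 hippocampal libraries, 1 per labelled rat. The authors prepared stranded total RNA libraries, sequenced single-end reads on a HiSeq, aligned them with HISAT2 to rn6 and counted them with HTSeq. What the authors deposited are unnormalized counts of reads for each Ensembl gene. For base calling, bcl2fastq 2.17.1.14 is listed in the submitters' processing notes, and the strand setting of the counting is not given in the sources used here. The protocol describes rRNA removal whereas a label field names polyA RNA, and this was not resolved. The 5 summary lines of each file (reads without a gene, 6.94% to 16.1%; ambiguous, 0.142% to 0.334%; multi-mapped, 40.1% to 76.3%; not aligned or of low quality, 0%) were left out of library sizes.

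The description field of the labels gave the group and replicate number. Genes passing filterByExpr were tested in R 4.3.3 with edgeR 4.0.16 (quasi-likelihood, TMM scaling), using a mean per group, no covariate and a Benjamini-Hochberg threshold of 0.05. A fit on copies gave slopes. Log2 fold changes use a prior count of 2. Their SE and 95% intervals come from the estimate without prior count and the F statistic. CPM values use TMM-scaled library sizes over tested genes. No gene lengths were used, so levels were not compared between genes. The scripts were tested on simulated counts. No library pair of a group agreed within sampling noise (lowest chi-square per degree of freedom 3.60). Nothing in the labels states separate litters, and p-values measure the spread between these samples; the biological coefficient of variation was 0.101. RefSeq promoters and gene order are of GRCr8, to which 13259 of the 15440 genes tested (85.9%) were matched.

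The 5 genes and all lists were chosen with earlier results of these data known. Genes were named by rule: the 5 genes, the 3 most correlated genes of each (1 of which is not reported here), called family genes and close paralogs, and the 2 nearest tested genes on each side. Alternatives were DESeq2 1.42.0, RLE scaling, no filter, each library left out, wt replicate 5 as Dup/+, a replicate block, a term for a multi-mapped share over 55%, *Ttr* as covariate, only the 2 groups compared, and, chosen after seeing the data, only low-share or only high-share libraries.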

Additional observations from a re-analysis of the deposited data

Results flagged for a closer look

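The CPM of the 5 genes in the 4 groups gave 20 sets of libraries, each checked for a library far from the rest, and chance would mark about 1 in 20. *Itgb6* in Del/+ replicate 3 stood at 4.08 CPM, where the nearest library of the group was at 1.56 CPM. The same library had the highest summed choroid plexus (1337 CPM) and ependymal (37.7 CPM) markers of all 19, and the part of these in the value was not tested. *Chad* in wt replicate 5 stood at 1.20 CPM, where the nearest wt library was at 0.557 CPM. This is the library whose label gives wt in one field and Dup/+ in another. Its *Rad21l1* (0.983 CPM) was the highest in wt and below 4 of 5 Dup/+ libraries.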

How the results depend on the processing

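Of 550 values of the 5 genes under 28 alternatives, 542 kept direction and call (Del/Dup against wt) or moved by less than 1 SD between replicates (the other comparisons). Values near 0 changed sign in Del/Dup against wt: *Rad21l1* was 0.028 with wt replicate 5 as Dup/+, 0.19 with a term for the multi-mapped share, and between -0.17 and 0.10 with each library left out, positive when wt replicate 3 (0.014), wt replicate 5 (0.028) or replicate 5 of Del/Dup (0.10) was left out. *Ptx3* ranged from -0.14 to 0.014 with each library left out, positive without wt replicate 1 (0.014), and was -0.34 with the term for the multi-mapped share and -0.19 with *Ttr* as covariate, against -0.08. The *Itgb6* slope, not called, ran from -0.18 to 0.40 and changed sign in 4 alternatives (0.22 without Del/+ replicate 3), and *Mybpc1* in Dup/+ from -0.17 to 0.30, with 5. *Itgb6* in Del/+ fell to 0.64 without Del/+ replicate 3. Replicate numbers did not pair the samples: deviations correlated over 0.1 in 2 of 24 same-number pairs (-0.17 to 0.12). With the number as a replicate block, *Ptx3* in Del/Dup was 0.0036, and the counts of called family genes (0 in each comparison) did not change.

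Calls over all genes in Del/+ numbered 119 of 15440 in edgeR, 592 of 14427 with DESeq2, 80 of 15440 with the term for the multi-mapped share and 299 of 16132 in low-share libraries alone, and the counts here are to be read against these. Family genes called in Del/+ rose from 0 to 4 with DESeq2 and to 1 with the term for the multi-mapped share (*Tgfb3*) and with only the 2 groups compared (*Dcn*). They numbered 5 in low-share libraries alone, *Nptxr*, *Itga7*, *Tgfb3*, *Tgfbr1* and *Actn2*, from 1 Del/+ library, and 0 to 2 with each library left out, with *Nptxr* called without Del/Dup replicate 2, Del/Dup replicate 3, Del/+ replicate 1 or Del/+ replicate 3. In Del/Dup the count was 0 to 1 with each library left out, *Mybpc3* without Del/Dup replicate 3. The cause was not tested. The count of the 5 genes called in Del/+ was 3 with DESeq2, 0 with the term for the multi-mapped share and in low-share libraries alone, and 1 to 3 with each library left out. The slope of *Mybpc1* lost its call without Del/+ replicate 2 (-0.60) and with the term for the multi-mapped share (-0.62 ± 0.17, SE), as did that of *Ptx3* with this term (0.48 ± 0.11, SE, the main value being 0.49 ± 0.09), and in low-share libraries alone no slope of the 5 was called, those of *Rad21l1*, *Ptx3* and *Mybpc1* being 0.79 ± 0.18, 0.51 ± 0.14 and -0.51 ± 0.20 (SE). With 8 to 15 reads of *Rad21l1* per Del/+ library, depth limits the precision of its level.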
